A study of Mus musculus with 24 samples.

Results

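Schwann cell myelin genes were followed in L4 and L5 dorsal root ganglia (DRGs) of *Nfil3* knockout (KO) and wildtype (WT) mice after a lesion of the sciatic nerve, by 7 of the 27398 gene names on the array. They were *Egr2*, *Mbp*, *Pmp22*, *Mal*, *Pllp*, *Mag* and *Prx*, taken as every non-control probe whose gene name in the array files equals the symbol, which gave 14 probes of 41174. Read by the probe with the highest mean for each gene, none of the 7 passed the test in a single genotype at day 2 or day 5. None differed detectably between KO and WT. Averaged over genotypes, *Pmp22* and *Mal* were higher 2 days post-lesion, by 0.46 and 0.72 in log2 intensity (1.37-fold and 1.65-fold). In a planned fit with slide as a block, neither passed the test of both lesion days together. Without the day 2 samples of 2 arrays, the day 2 differences were 0.13 and 0.22 and did not pass. Those arrays were picked after their high values were seen, so that fall does not test the rise. A further *Mbp* probe, listed for another transcript of that gene, fell in both genotypes at both days. Its direction held in every fit, but none of these calls passed with array as a fixed block or on arrays that held samples of 2 time points.

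A Schwann cell wraps a stretch of a peripheral axon in many layers of its own membrane, and the compacted layers form the myelin sheath that speeds conduction. The zinc finger factor EGR2 (Krox20) acts with SOX10 to switch on and maintain the genes of the sheath. After an axon is cut, Schwann cells of the distal nerve switch these genes off and turn into repair cells, whereas in the DRG the cells ensheath the neuronal somata (satellite glia) or the axon stretches next to them.

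Adult male *Nfil3* -/- mice, whose null allele for the transcription factor NFIL3 was made from a lox allele with a Cre line driven by a human CMV promoter and kept on a C57BL/6J background, were compared with *Nfil3* +/+ (WT) littermates. The left sciatic nerve was cut and sutured in both genotypes, ganglia were taken at day 2 or day 5, and control ganglia came from the non-injured side. There were 24 samples in 6 groups of 4 (WT control, WT day 2, WT day 5, KO control, KO day 2 and KO day 5), on 12 Agilent arrays of 3 slides, with 2 samples of each group in each dye. Each array carried 2 different samples, and these were of 1 time point (a KO and a WT sample) on 6 arrays and of 2 time points of the same genotype on the other 6. The labels name the tissue DRG neurons, but genes of Schwann cells, satellite glia, macrophages, endothelium and fibroblasts were all well above background in every sample, and the methods describe whole ganglia. The 4 samples of a group are described as independent, but no source gives the animal behind each sample, so p-values measure the spread between these samples, which may in part be technical. In bulk RNA, fewer cells of a type and less RNA per cell cannot be told apart.

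Between 54.5% and 72.3% of probes were well above background per sample, and no spot was saturated. *Nfil3* ranged from 8.44 to 11.09 in log2 intensity in WT and from 2.82 to 7.59 in KO samples, and was well above background in 12 of 12 WT samples and in 5 of 12 KO samples. One of these 5, the library labelled KO control replicate 4, read 7.59 against 2.94, 3.80 and 4.37 in the other KO controls, below the lowest WT control (8.44). Another label field of this library gives day 5. Its level of *Jun*, a gene that rises in injured neurons, was 10.13, within the range of the KO controls (10.02 to 10.39) and below that of all KO day 5 samples (11.55 to 11.98). The library was taken as a control, and values without it are given where they differ.

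Both genes that passed when the genotypes were pooled, *Pmp22* and *Mal*, are shown here with the 250 bases before an annotated start site. Beside them are the genes of the group with a searched motif in such a stretch, *Egr2* and *Mag*. *Pmp22*, *Egr2* and *Mag* have several annotated start sites, not all of which are printed. These are RefSeq promoters of GRCm38.p6, read 5′ to 3′ on the strand of the gene, in lower case with motif matches in capitals.
*Pmp22*, chr11:63128732-63128981, plus strand: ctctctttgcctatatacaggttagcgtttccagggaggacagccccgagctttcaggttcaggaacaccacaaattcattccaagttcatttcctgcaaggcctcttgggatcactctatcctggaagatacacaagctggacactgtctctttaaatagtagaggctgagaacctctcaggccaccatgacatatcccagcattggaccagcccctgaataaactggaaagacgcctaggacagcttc
*Mal*, chr2:127656696-127656945, minus strand: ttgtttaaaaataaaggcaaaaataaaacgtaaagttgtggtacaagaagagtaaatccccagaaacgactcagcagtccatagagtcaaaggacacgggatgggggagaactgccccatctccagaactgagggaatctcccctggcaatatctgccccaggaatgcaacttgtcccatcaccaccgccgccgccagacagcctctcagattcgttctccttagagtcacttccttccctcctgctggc
*Egr2*, chr10:67535249-67535498, plus strand: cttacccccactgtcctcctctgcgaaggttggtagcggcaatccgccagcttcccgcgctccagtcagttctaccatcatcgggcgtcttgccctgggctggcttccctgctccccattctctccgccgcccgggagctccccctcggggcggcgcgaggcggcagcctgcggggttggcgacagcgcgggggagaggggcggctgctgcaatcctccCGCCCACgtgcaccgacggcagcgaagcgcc
*Mag*, chr7:30914923-30915172, minus strand: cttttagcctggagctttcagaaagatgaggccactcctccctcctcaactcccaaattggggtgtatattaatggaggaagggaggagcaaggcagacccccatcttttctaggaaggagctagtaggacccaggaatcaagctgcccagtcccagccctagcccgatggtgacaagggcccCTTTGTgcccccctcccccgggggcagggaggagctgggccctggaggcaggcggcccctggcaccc
The search covered both strands of 15 promoter windows of 6 genes, each from 250 bases before to 50 after a start site; *Mbp* was not searched. The capitals in *Egr2* mark the core GTGGGCG of EGR family sites on the opposite strand at position -31, and those in *Mag* the SOX core ACAAAG on the opposite strand at position -67, which another, overlapping *Mag* window also holds. The other *Egr2* windows, at start sites further along the chromosome, held no searched motif, and neither did the remaining *Mag* window. Among all 32851 RefSeq promoters, 7.97% held the EGR core and 18.7% the SOX core. The full EGR 9-mer GCGTGGGCG (which contains the core and stands in 0.612% of all promoters) and the NFIL3 sites TTACGTAA (0.119%) and TTATGTAA (0.938%) were in none of the 15 windows. These are descriptions of letters and not of binding.

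For each gene the probe with the highest mean stands for the gene, and each of these 7 probes was well above background in all 24 samples. All levels below are normalised log2 intensities of that probe, so a difference of 1 is a doubling. In each of the 7 genes the mean was highest in WT day 2 and lowest in KO control, and in 6 of the 7 KO control stayed lowest without replicate 4. The 7 genes vary together, so these are not 7 separate observations, and the share of all genes with this order was not computed. When the 6 groups were ordered by mean, every pair of neighbours in that order overlapped in its sample values in each of the 7 genes. How many of all genes overlap in this way was not computed either, so the overlap is not a trait shown to be particular to the 7.

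*Egr2*, the regulator of the group, is read by a probe on chromosome 10 (67004758 to 67004817, mm9, plus strand) that is printed 10 times on each array. Its WT controls read 9.64, 9.57, 9.31 and 9.51, its WT day 2 samples 9.92, 10.55, 11.14 and 9.64 and its WT day 5 samples 9.62, 9.61, 9.33 and 9.70. In KO mice the controls read 9.18, 9.45, 9.64 and 8.98, the day 2 samples 10.49, 9.0, 9.28 and 10.19 and the day 5 samples 9.12, 9.93, 9.39 and 9.85. WT day 2 replicates 2 and 3 and KO day 2 replicates 1 and 4 stood above all others, while the remaining day 2 samples lay among or close to the controls. The day 2 difference was 0.80 ± 0.31 (SE) in WT and 0.43 ± 0.31 in KO (limma adjusted p = 0.117 and 0.453).

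*Pmp22* encodes a tetraspan protein of compact myelin whose duplication or loss causes hereditary neuropathy in people. Its probe lies on chromosome 11 (62972914 to 62972973, mm9, plus strand). The WT controls read 16.04, 15.63, 15.92 and 15.85, the WT day 2 samples 16.29, 16.65, 17.00 and 15.99 and the WT day 5 samples 16.03, 15.69, 15.44 and 15.85. The KO controls read 15.38, 16.13, 15.67 and 15.63, the KO day 2 samples 16.29, 15.73, 15.64 and 16.31 and the KO day 5 samples 15.76, 16.01, 15.67 and 16.02. The same 4 day 2 samples and WT day 2 replicate 1 were the highest of the 24, and the ranges of day 2 and control overlapped in both genotypes. The day 2 difference was 0.62 ± 0.21 (SE) in WT and 0.29 ± 0.21 in KO (limma adjusted p = 0.0659 and 0.441).

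*Mal* and *Pllp* encode related tetraspan proteolipids of the myelin membrane, of which MAL takes part in sorting membrane cargo. *Mal* is read on chromosome 2 (127458948 to 127458975, mm9, minus strand). Its WT controls read 9.96, 9.51, 9.02 and 9.18, its WT day 2 samples 9.79, 10.34, 11.17 and 9.69 and its WT day 5 samples 10.07, 9.51, 9.49 and 9.63. In KO mice its controls read 9.34, 9.56, 9.46 and 9.06, its day 2 samples 10.73, 9.45, 9.50 and 10.17 and its day 5 samples 9.58, 9.85, 9.55 and 9.96. The same 4 day 2 samples led, with WT day 2 replicate 3 highest of all. The difference at day 2 was 0.83 ± 0.30 (SE) in WT and 0.61 ± 0.30 in KO (limma adjusted p = 0.093 and 0.232). Another *Mal* probe gave 0.84 ± 0.32 and 0.65 ± 0.32 for the same differences.

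*Pllp* (chromosome 8, 97199578 to 97199637, mm9, minus strand) ranged from 9.45 to 9.81 in WT controls, 9.86 to 11.17 in WT day 2 samples and 9.22 to 10.06 in WT day 5 samples. In KO mice it ranged from 9.08 to 9.68 in controls, 9.21 to 11.07 at day 2 and 9.32 to 10.15 at day 5. In WT its 4 day 2 samples lay above all 4 controls, as did those of 7.31% of all genes, with a difference of 0.69 ± 0.34 (SE) that did not pass (limma adjusted p = 0.252).

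*Mbp* encodes the basic protein that holds the inner faces of compact myelin together, and its brightest probe is printed 10 times per array on chromosome 18. It ranged from 13.83 to 14.56 in WT controls, 14.16 to 15.51 in WT day 2 samples and 13.87 to 14.58 in WT day 5 samples. The KO ranges were 13.85 to 14.40 in controls, 13.38 to 15.07 at day 2 and 14.09 to 14.53 at day 5. The same 4 day 2 samples read between 14.91 and 15.51 and all others at most 14.58, while KO day 2 replicate 2 was the lowest of the 24.

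*Mag*, an adhesion protein of the membrane facing the axon, and *Prx* (periaxin), which links the outermost Schwann cell membrane to the surrounding matrix, belong to the non-compact parts of the sheath. *Mag* (chromosome 7, 31684231 to 31684290, mm9, minus strand) ranged from 10.34 to 10.697 in WT controls and from 10.58 to 11.81 in WT day 2 samples, and in KO mice from 9.93 to 10.72 in controls and 9.86 to 11.29 at day 2. *Prx* (chromosome 7, 28304333 to 28304392, mm9, plus strand) ranged from 11.46 to 12.10 in WT controls and from 11.69 to 13.39 in WT day 2 samples, and in KO mice from 11.36 to 11.91 in controls and 10.94 to 12.72 at day 2. For both genes the KO day 2 samples reached below and above the KO controls.

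**Figure D1:**
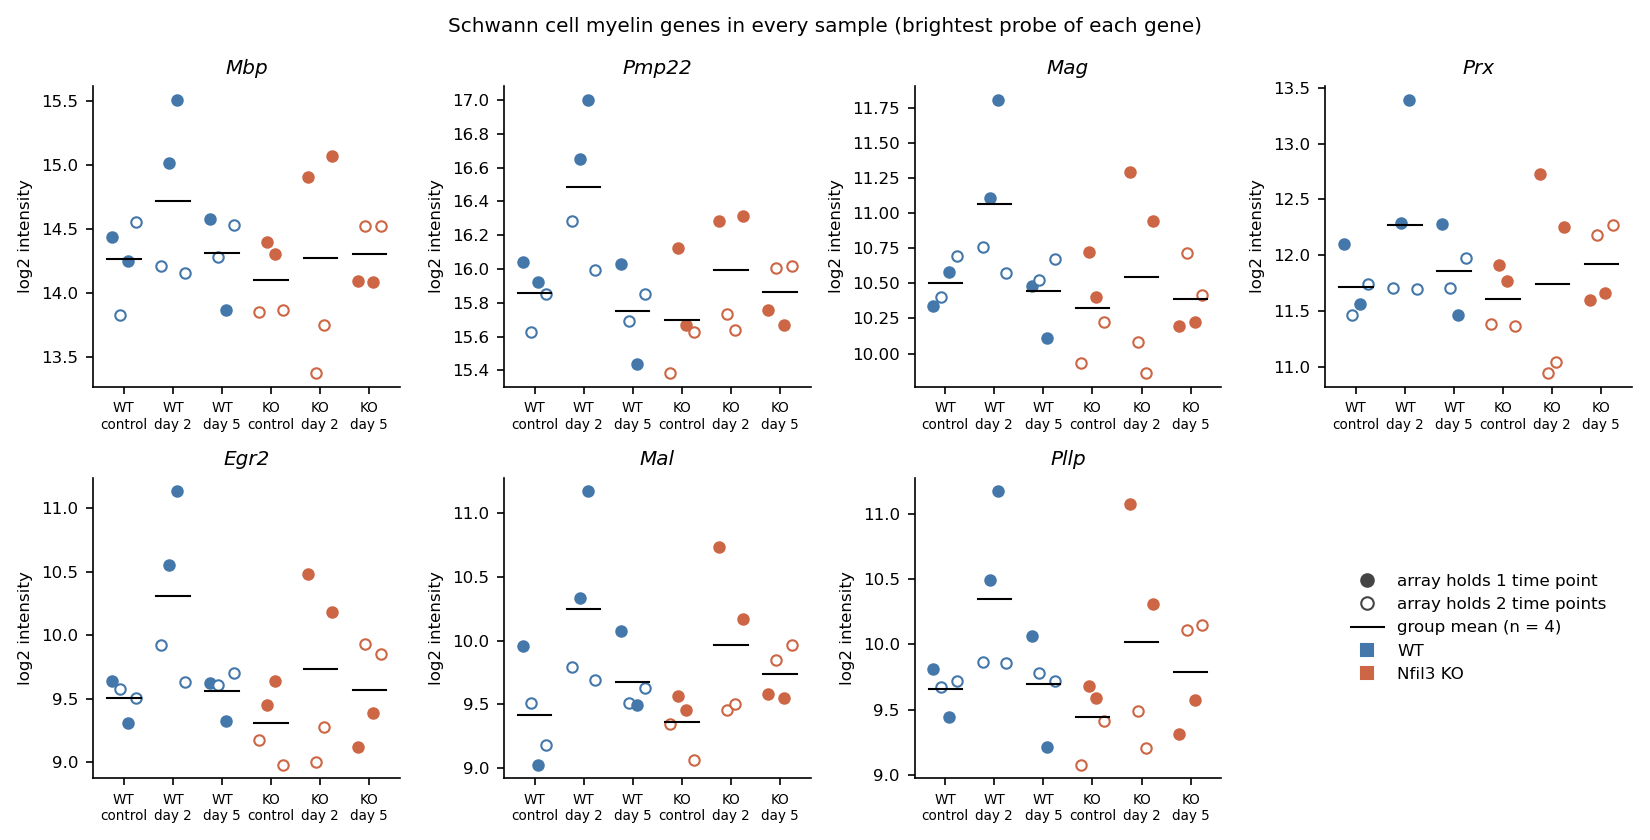
Normalised log2 intensity (y axis) of the brightest probe of each of the 7 genes in the 24 samples, by group (x axis), with WT in blue, KO in orange and a line at each mean of 4 samples; filled points come from arrays whose 2 samples are of 1 time point and open points from arrays with 2 time points. In both day 2 groups the 2 filled points lie above the 2 open points in each of the 7 genes.

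The first question was whether the lesion changed these genes. In the F test of both lesion days over both genotypes, 2 of the 7 passed at an adjusted p of 0.05, *Pmp22* (0.0388) and *Mal* (0.0459, limma), while 26.2% of all 27398 genes passed, so the share among the 7 was near the background. The other 5 genes had adjusted p between 0.0983 (*Egr2*) and 0.632 (*Mbp*). With the genotypes averaged, *Pmp22* was 0.46 ± 0.15 (SE) and *Mal* 0.72 ± 0.21 higher at day 2 than in controls (limma adjusted p = 0.0313 and 0.0196), and 9.48% of all genes passed in that direction. At day 5 none of the 7 passed with the genotypes averaged, against 23.2% of all genes, and their differences ran from 0.00 (*Mag*) to 0.32 (*Mal*).

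Neither F test call held with slide as a block (limma adjusted p = 0.0817 for *Pmp22* and 0.0754 for *Mal*) or with array as a random block (0.0645 and 0.0917, limma adjusted p). Nor did either hold when the sample labelled KO control replicate 4 was left out (limma adjusted p = 0.057 for *Pmp22* and 0.0867 for *Mal*), and at day 2 over both genotypes *Mal* passed without it (0.67, limma adjusted p = 0.0413) and *Pmp22* did not (0.44, limma adjusted p = 0.0538). With single samples left out in turn, none of the 7 genes passed the F test in 14 of 24 fits, and at most 3 did.

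Within a genotype, none of the 7 genes passed in any of the 4 lesion comparisons (limma). The day 2 and day 5 differences of a genotype share their controls. In WT at day 2 the 7 differences ran from 0.45 (*Mbp*) to 0.83 (*Mal*) with a median of 0.62, against a median of -0.02 over all genes, of which 11% passed. At an unadjusted p under 0.05 there were 3 of 7 and 22.7% of all genes. In KO at day 2 the differences ran from 0.13 (*Prx*) to 0.61 (*Mal*), median 0.29, and 11.8% of all genes passed (at an unadjusted p under 0.05, 0 of 7 and 24.5% of all genes). All 7 differences were above 0 in both genotypes, as were 47.3% of all genes in WT and 48.7% in KO. The 7 genes vary together, as described below, so their common sign is not 7 separate observations. Without KO control replicate 4 the KO day 2 differences ran from 0.05 to 0.57.

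At day 5 the WT differences from control ran from -0.11 (*Pmp22*) to 0.26 (*Mal*) and the KO differences from 0.07 (*Mag*) to 0.38 (*Mal*), with none passing against 13.9% and 12.7% of all genes, and none at an unadjusted p under 0.05 against 24% and 23.2% (limma). From day 2 to day 5 none of the 7 passed in WT (limma), with differences from -0.75 (*Egr2*) to -0.41 (*Mbp*), where 0.708% of all genes passed. At an unadjusted p under 0.05 there were 3 of 7 and 9.05% of all genes. The same KO differences ran from -0.23 to 0.19, and 0.975% of all genes passed (at an unadjusted p under 0.05, 0 of 7 and 9.92% of all genes).

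The second question was whether loss of NFIL3 changed these genes, at rest or in their course after the lesion. None of the 7 passed between KO and WT in controls, at day 2 or at day 5 (limma), where 0%, 0.0146% and 0.0109% of all genes passed. In control DRGs the 7 differences, KO minus WT, ran from -0.22 (*Pllp*) to -0.06 (*Mal*), with 95% intervals reaching at most from -0.93 to 0.68. Without KO control replicate 4 they ran from -0.21 (*Pllp*) to 0.04 (*Mal*), where the sign of *Mal* turned, and none passed. *Prx* was then -0.03 in place of -0.11 and *Egr2* -0.08 in place of -0.19. At day 2 they ran from -0.57 (*Egr2*) to -0.28 (*Mal*), with intervals from -1.32 to 0.38, and *Pmp22* was the 1 gene of the 7 at an unadjusted p under 0.05, as were 3.81% of all genes. At day 5 they ran from -0.06 (*Mag*) to 0.11 (*Pmp22*), with intervals from -0.72 to 0.85. In controls and at day 5 none of the 7 was at an unadjusted p under 0.05, against 1.7% and 2.38% of all genes. With 4 samples a group, differences up to these bounds could not be detected or set aside.

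None of the 7 passed the time*genotype interaction F test (limma), nor did any of the 27398 genes (0%), and at an unadjusted p under 0.05 there were 0 of 7 and 2.12% of all genes. The lesion difference in KO minus that in WT ran from -0.42 (*Prx*) to -0.11 (*Pllp*) at day 2 and from 0.12 to 0.31 at day 5, in each case with a 95% interval that spans 0.

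**Figure D2:**
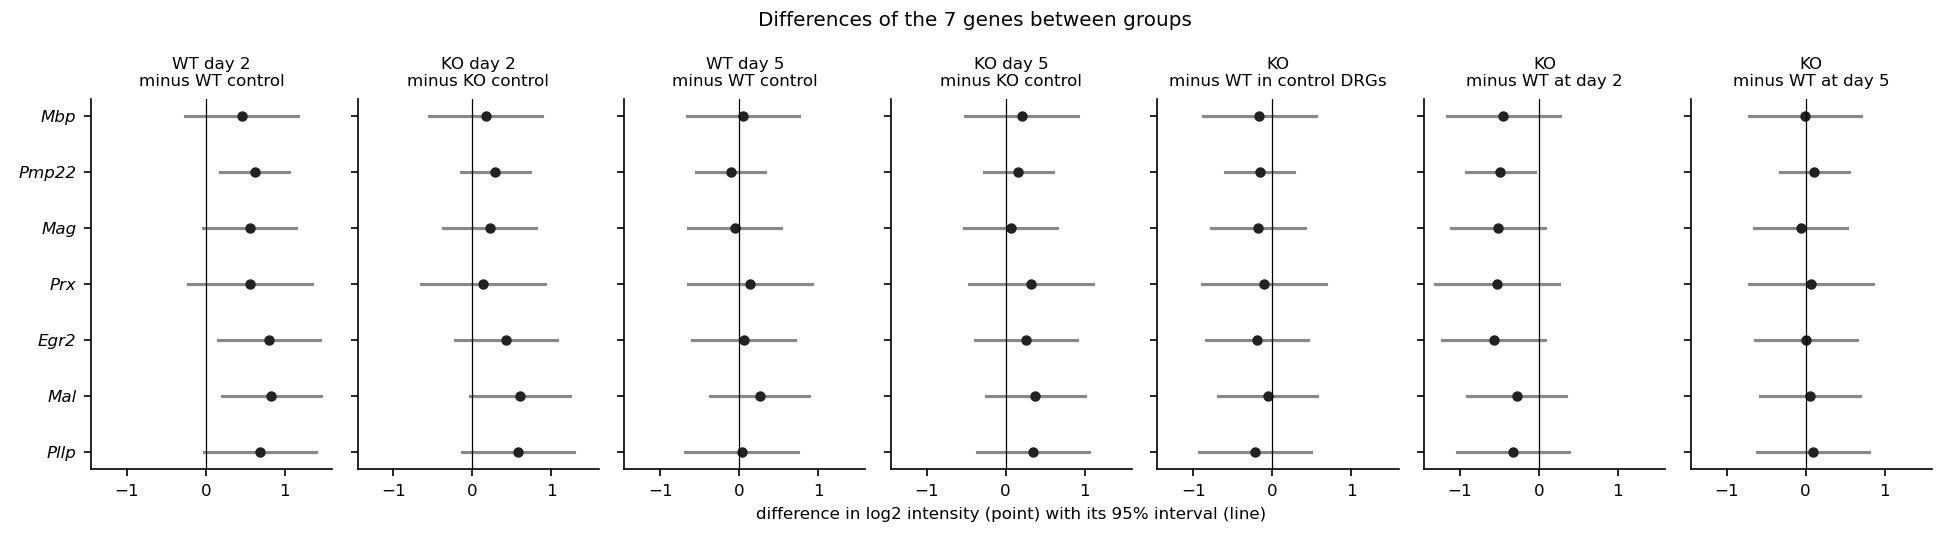
Difference in log2 intensity (x axis, points) with its 95% interval (lines) for each of the 7 genes (y axis) in the 4 lesion comparisons and the 3 comparisons of KO with WT, 4 samples per group. WT day 2 minus WT control has the largest differences, 0.45 to 0.83, and the day 5 differences from control lie between -0.11 and 0.38.

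The day 2 samples fell into 2 levels by the array they were on. The 2 arrays with a KO and a WT day 2 sample each held WT day 2 replicates 2 and 3 and KO day 2 replicates 1 and 4, and in each of the 7 genes both of these read above the other 2 samples of their group. The 7 genes vary together, so these are not 7 separate observations. The share of all genes that split in this way was not computed. Averaged over the 7 genes and set against their mean over 24 samples, they stood at 0.65 and 1.33 in WT and 0.80 and 0.48 in KO. The 4 day 2 samples that shared an array with a control or a day 5 sample stood at 0.09 and -0.04 in WT and at -0.55 and -0.52 in KO.

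On arrays of 1 time point, WT day 2 was higher than WT control by 0.84 (*Pmp22*) to 1.37 (*Egr2*) and KO day 2 higher than KO control by 0.40 (*Pmp22*) to 1.06 (*Pllp*). On the arrays of 2 time points the same differences were -0.01 to 0.40 in WT and -0.38 to 0.27 in KO. Without the 2 arrays that hold 2 day 2 samples, *Pmp22* differed by 0.13 and *Mal* by 0.22 at day 2 over both genotypes (limma adjusted p = 0.618 and 0.439). This fit and the split by kind of array were chosen after the data were seen. The fit drops the samples that stood highest for these genes, so smaller differences followed from the choice and do not test the rise.

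In KO mice the other groups split by array as well. Both KO controls on arrays of 1 time point lay above the other 2 in all 7 genes, and both KO day 5 samples on such arrays lay below the other 2 in all 7. Here too the 7 genes are not separate observations, and the share of all genes with such a split was not computed. KO day 5 was higher than KO control by 0.49 to 0.88 on arrays of 2 time points and differed by -0.36 to 0.05 on arrays of 1 time point. In WT controls and WT day 5 samples no such split was seen in more than 1 gene. KO control replicate 4 was on an array of 2 time points and stood at -0.48, and its KO day 5 partner at 0.20; without this control the KO day 5 differences over all arrays were 0.03 to 0.34.

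The correlation between the 2 samples of an array, with group means removed, was 0.52 (*Pmp22*) to 0.85 (*Mag*) for the 7 genes against 0.266 as the consensus over all probes. That consensus includes probes not well above background, and no value for bright probes alone is given here. The contrast is thus not shown to be particular to these genes, which also vary together. With array as a fixed block, which compares the 2 samples of an array, none of the 7 genes passed in any comparison, and the day 2 differences became 0.03 to 0.42 in WT and -0.37 to 0.13 in KO. Arrays whose samples share a time point hold no lesion comparison of their own. This fit therefore leans on the arrays of 2 time points and is no separate check from that subset. The share of all genes passing in it is not given here. Within slide 2, whose only WT control was replicate 2, the WT day 2 differences were 0.79 to 1.08, and within slide 3 they were 0.21 to 0.96. The KO differences within slides are not given here. The sources do not state which animals or extractions the samples of an array shared, so array and sample origin cannot be told apart.

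**Figure D3:**
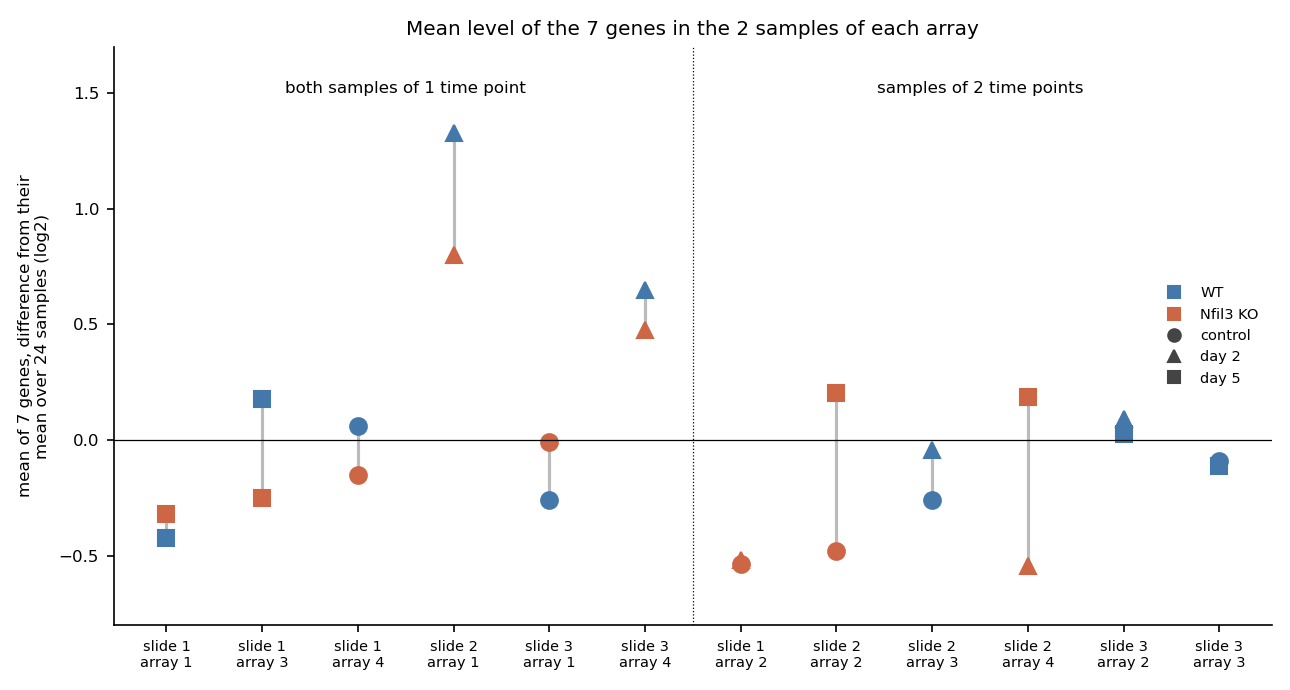
Mean of the 7 genes in each sample as the difference from their mean over 24 samples (y axis, log2) for the 12 arrays (x axis), with a line joining the 2 samples of an array, colour for genotype and shape for time point. The 4 samples of the 2 day 2 arrays lie between 0.48 and 1.33, above all other samples.

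Other cell types were measured beside the day 2 split. The summed intensity of the 7 fibroblast and perineurial markers was 69116 to 83625 in the 2 high WT day 2 samples against 34407 to 43747 in the other 2, and 58421 to 70526 against 28691 to 36699 in KO. That of the 8 macrophage markers was 3198 to 3847 against 2381 to 2633 in WT and 3212 to 3471 against 1981 to 2238 in KO. The 11 sensory neuron markers overlapped in WT (375658 to 411744 against 390162 to 434458) and were lower in KO (338813 to 389602 against 396978 to 410957), and the 8 satellite glia markers overlapped in both (212864 to 219194 against 218326 to 219279 in WT, 202954 to 218051 against 215924 to 226360 in KO). The 6 endothelial markers overlapped in WT (1928 to 2234 against 1354 to 2156) and were higher in KO (1667 to 2158 against 1411 to 1456). Every marker of these 5 lists was well above background in all 24 samples. Of 6 oligodendrocyte markers, the central counterpart that also expresses *Mbp*, *Mag* and *Mal*, none was well above background in all samples and *Opalin*, *Nkx2-2* and *Klk6* were so in none. The summed intensity of the 14 genes of immature or repair Schwann cells was lower in the high day 2 samples, at 20356 to 20622 against 23849 to 32085 in WT and 19507 to 20811 against 24720 to 26629 in KO. Of these 14 genes, 8 were well above background in all samples and 2 in none, so the brightest genes weigh most in the sum. Some, such as *Jun*, are also expressed by injured neurons. The part of these cell types and states in the day 2 split was not tested.

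Among the 12 probes well above background in all 24 samples, *Mbp* was the 1 gene of the 7 whose probes went opposite ways at day 2. The probe in question is listed against another RefSeq transcript of the gene and lies 26766 bases before the brightest probe on chromosome 18. *Mbp* has several transcripts, and neither which of them this probe reads nor which cells of the ganglion express it was tested. Its WT controls read 10.89, 10.79, 11.27 and 11.37, its WT day 2 samples 10.37, 9.78, 10.21 and 10.56 and its WT day 5 samples 9.96, 10.05, 10.17 and 10.23. In KO mice the controls read 10.92, 11.01, 11.14 and 11.20, the day 2 samples 9.83, 10.47, 10.86 and 10.20 and the day 5 samples 10.24, 10.02, 10.37 and 10.34. Every lesion sample lay below every control of its genotype at both days, as did those of 8.16% and 10.5% of all probes in WT and 7.17% and 10.8% in KO at days 2 and 5.

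On this probe the WT difference from control was -0.85 ± 0.19 (SE) on day 2 (limma adjusted p = 0.00557) and -0.98 ± 0.19 on day 5 (limma adjusted p = 0.00127). The KO differences were -0.73 ± 0.19 and -0.82 ± 0.19 (limma adjusted p = 0.0156 and 0.00598). In these 4 comparisons 4.95%, 6.93%, 5.82% and 6.11% of all probes passed in that direction. KO and WT did not differ detectably, with 95% intervals of the difference from -0.41 to 0.38 in controls, -0.28 to 0.50 at day 2 and -0.25 to 0.53 at day 5.

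The differences were below 0 on both kinds of array, with -1.08 and -0.61 in WT and -1.06 and -0.40 in KO at day 2 on arrays of 1 and of 2 time points, and -1.02 and -0.94 in WT and -0.77 and -0.88 in KO at day 5. On arrays of 2 time points alone none of the 4 passed (limma adjusted p = 0.402 and 0.0993 in WT and 0.643 and 0.118 in KO, days 2 and 5), and on arrays of 1 time point neither day 5 difference did (limma adjusted p = 0.0511 in WT and 0.14 in KO). Without KO day 2 replicate 1 the KO difference at day 2 no longer passed (-0.56, limma adjusted p = 0.0713), whereas both KO calls held without KO control replicate 4. With array as a fixed block the 4 differences were -0.51 and -1.03 in WT and -0.43 and -0.82 in KO, and none passed (limma adjusted p from 0.0554 to 0.512). Within groups the probe ran opposite to the brightest *Mbp* probe (Pearson r = -0.48, Spearman rho = -0.47, 24 samples), whereas the remaining probe, listed for the same transcript as the brightest, ran with it (r = 0.95, rho = 0.92).

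**Figure D4:**
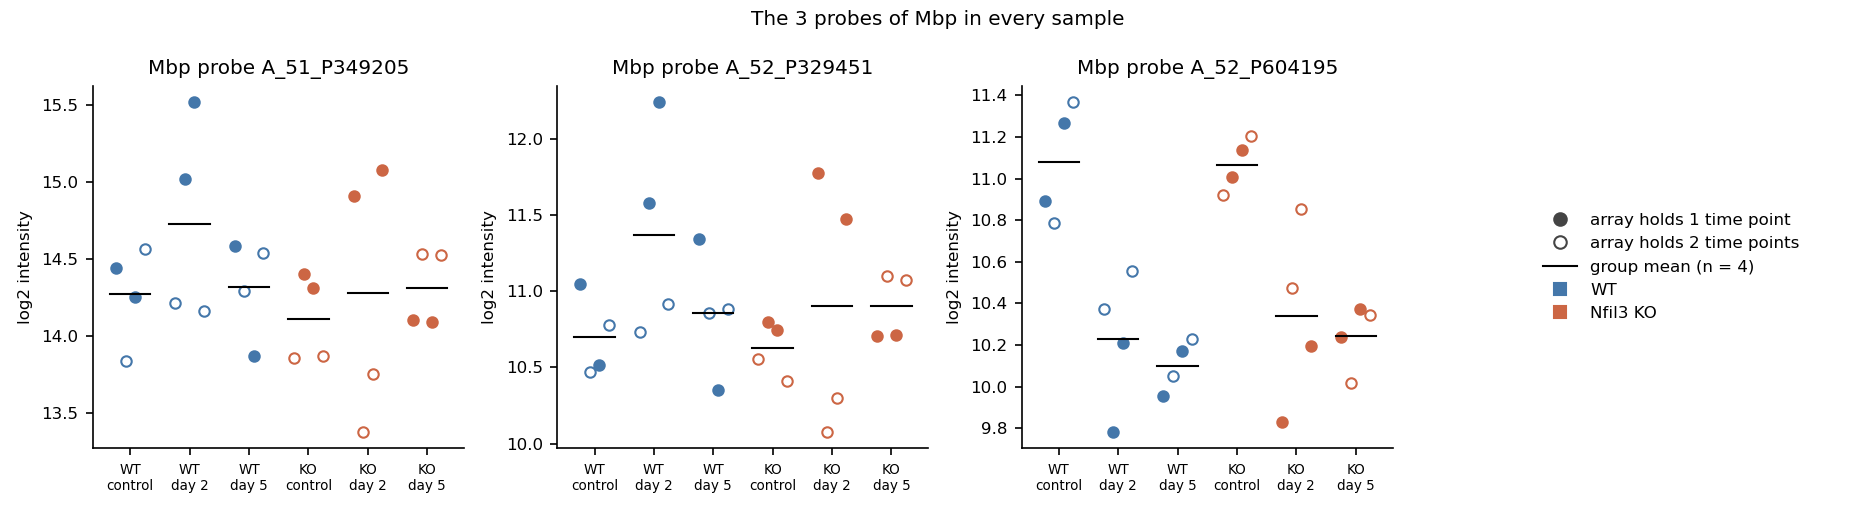
Normalised log2 intensity (y axis) of the 3 *Mbp* probes in the 24 samples by group (x axis), with symbols as in the plot of all 7 genes. The probe in the last panel, of the other transcript, is lower in all lesion samples, by 0.73 to 0.98 on average, and the other probes are not.

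Further probes of the other genes followed the brightest, with r = 0.83 for *Mag*, 0.89 for *Mal* and 0.93 for *Pllp* within groups (rho = 0.70, 0.89 and 0.92). A probe listed for *Pmp22* and 1 listed for *Pllp* lie on the opposite strand to the gene, were well above background in 2 and 4 of 24 samples, and are given no further value here.

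The 7 genes moved together from sample to sample. With the group means removed, the 21 pairs of genes correlated with Pearson r from 0.74 (*Mag* and *Mal*) to 0.95 (*Prx* and *Pllp*), median 0.89 (Spearman rho 0.64 to 0.96), over 24 samples that share arrays and are not independent. Without the 2 samples farthest from the median, WT day 2 replicate 3 and KO day 2 replicate 1, the range was 0.47 to 0.94 with a median of 0.84. Without all day 2 samples it was 0.12 to 0.89, median 0.75, in 16 samples.

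Among 14477 genes well above background in all samples, the 10 most like the mean of the 7 in this sense were *Plekhb1* (r = 0.99), *Bfsp2*, *Smtn*, *Nes*, *Ugt8a*, *Ogn*, *Mboat1*, *Slc36a2*, *2310046A06Rik* and *Ndrg1* (r = 0.97). The median gene had r = -0.04. *Ugt8a* makes the galactolipid of myelin, and *Nes* and *Ogn* encode the intermediate filament nestin and a small proteoglycan of connective tissue.

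A list of 22 other myelin genes had a median r of 0.88 with the mean of the 7. *Cldn19* and *Drp2*, of non-compact myelin, had r = 0.95 each, whereas *Cd9* (0.10), *Kcna1* (0.00) and *Tspan2* (-0.84) did not follow. Median r was 0.79 for the 7 fibroblast and perineurial markers, 0.62 for endothelium, 0.50 for macrophages, -0.02 for satellite glia and -0.46 for sensory neurons.

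**Figure D5:**
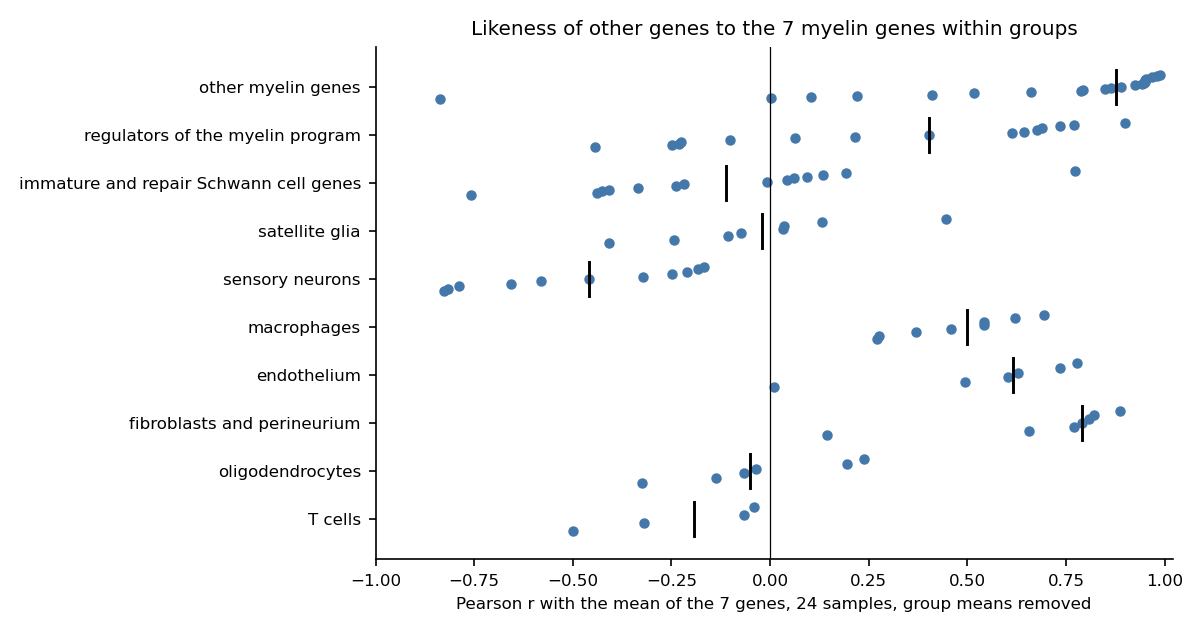
Pearson r (x axis) of each gene of 10 lists (y axis) with the mean of the 7 myelin genes over 24 samples after the group means were removed, with a line at each list's median. The other myelin genes have a median of 0.88 and the fibroblast markers 0.79, and all sensory neuron markers lie below 0.

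Across the lesion groups, 4 of the 22 other myelin genes passed the F test, where 26.2% of all genes did. In the 4 lesion comparisons 1 of the 4 read above control throughout and the other 3, *Cd9*, *Kcna1* and *Tspan2*, below it, *Tspan2* with differences of -0.78 and -0.98 in WT and -0.62 and -0.86 in KO at days 2 and 5. *Tspan2* and the axonal channel subunit *Kcna1* are also expressed by neurons. Of the enzymes that make myelin lipids, *Fa2h* differed at day 2 by 0.85 in WT and 0.57 in KO, *Ugt8a* by 0.59 in WT and 0.26 in KO and *Gal3st1* by 0.33 in WT and 0.32 in KO. Proteins of the non-compact regions and their junctions included *Cldn19* (0.64 in WT and 0.41 in KO), *Drp2* (0.70 in WT and 0.59 in KO), *Gjb1* (0.36 in WT and 0.21 in KO), *Gjc3* (0.39 in WT and 0.13 in KO), *Ncmap* (0.60 in WT and 0.43 in KO), *Mpp6* (0.23 in WT and 0.04 in KO) and *Dag1* (0.24 in WT and -0.01 in KO). At the node, gliomedin (*Gldn*) differed by 0.63 in WT and 0.26 in KO and *Nfasc*, which has neuronal and glial forms, by -0.17 in WT and -0.29 in KO. Others were *Pmp2*, a fatty acid binding protein of compact myelin (0.90 in WT and 0.28 in KO), *Cnp* (0.37 in WT and 0.25 in KO), *Cmtm5* (0.18 in WT and 0.23 in KO), *Plekhb1* (0.45 in WT and 0.27 in KO) and *Ndrg1* (0.38 in WT and 0.07 in KO), and none of these 17 passed the F test. The median difference of the list was 0.39 in WT and 0.24 in KO at day 2 and 0.09 and 0.23 at day 5.

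The 15 regulators of the myelin program included 4 that passed the F test, where 26.2% of all genes did. These were *Nrg1*, the axonal growth factor that drives myelination (-0.54 and -0.68 at day 2 in WT and KO, of which the latter passed), *Egr3*, *Yy1* and the adhesion receptor gene *Gpr126*. *Sox10*, the partner of EGR2, did not pass (0.33 in WT and 0.09 in KO at day 2), nor did *Pou3f1*, *Nab1*, *Nab2*, *Erbb2* or *Erbb3*. Of 14 genes of immature or repair Schwann cells 6 passed the same test. *Jun* was higher by 1.64 to 1.78 and *Gfap* by 1.11 to 1.75 in the 4 lesion comparisons, but *Jun* is expressed by injured neurons and *Gfap* by satellite glia too, and *Gfap* was well above background in 18 of 24 samples, while *Sox2* and *Shh* did not pass and *Artn* and *Olig1* were well above background in no sample. *Ngfr* (-0.25 and -0.52 at day 2 in WT and KO), *Ncam1*, *Runx2* and *Ednrb* also passed. With the genotypes averaged, 6 of the 14 genes passed as higher and 1 as lower at day 5 (limma). Of all genes, 10.2% and 13% did so. At day 2, 2 of the 14 passed as higher and 0 as lower, against 9.48% and 12.7% of all genes.

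Markers of other cells included larger differences. All 8 macrophage markers and all 11 sensory neuron markers passed the F test, with median differences at day 5 of 1.65 in WT and 1.44 in KO for the first and -0.63 and -0.68 for the second. Of 8 satellite glia markers 6 passed, of 6 endothelial markers 1 (*Pecam1*), of 7 fibroblast and perineurial markers 2 (*Lum* and *Slc2a1*), and of 6 oligodendrocyte and 4 T cell markers none. The share of all genes in this test was 26.2%. No gene of any list passed the interaction test.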

How the data were processed

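L4 and L5 DRG RNA of 24 samples was amplified, labelled with Cy3 or Cy5 and hybridised by the authors to Agilent 4x44K whole mouse genome arrays. Per the file headers, Feature Extraction 10.7.3.1 gave each spot a mean foreground and a local background intensity in each channel, and the submitters' processing notes name the build mm9. These deposited intensities are neither log transformed nor normalised. The arrays' number, and not a count depth, limits the precision.

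Each channel was treated as 1 sample, following the methods of the study. From the deposited intensities, limma 3.58.1 in R 4.3.3 computed Edwards background correction, log2 values and quantile normalisation over 24 channels. Outlier spots (0.106% to 0.835% per channel) were left out and spots of a probe averaged. The model held 1 mean per group, with moderated statistics, and Benjamini-Hochberg adjustment over all 41174 probes at a threshold of 0.05. The brightest probe stood for a gene, and counts over all genes were made in the same way. Intervals are 95%.

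Groups came from titles. The methods' F tests (lesion over both genotypes, time*genotype interaction) and 9 differences between groups were tested, with 14 processing choices varied beside leaving out each sample and within-slide values, and 4 alternatives (array as a fixed block and 3 subsets of arrays) added after seeing the data. The code was tested on simulated data. The members and lists were chosen with earlier results of these data known, so neither is independent evidence. Named beside the 7 genes were the 10 genes most like their mean, the myelin list (some of its genes are not reported here) and, in each other list, up to 5 genes by the smallest adjusted p and defining markers not well above background. *Sox10*, *Pou3f1*, *Nab1*, *Nab2*, *Erbb2*, *Erbb3*, *Sox2*, *Shh* and *Ednrb* were named after their values were seen. Values were compared between samples of 1 probe, never between probes.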

Additional observations from a re-analysis of the deposited data

Results flagged for a closer look

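One value stood far from the others of its group among the 84 groups of 4 samples examined (6 groups for each of 14 probes). The opposite-strand probe listed for *Pllp* (A_51_P154867) read 0.307 in log2 intensity in KO day 2 replicate 3, while the other KO day 2 samples read 4.01 to 4.40. The gap was 0.905 of the whole range of the group, above Dixon's critical value for 4 samples. Chance marks about 1 in 20 groups by this rule. This probe stood well above its background in 4 of the 24 samples, and its value enters no result on the 7 genes. The cause was not tested.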

How the results depend on the processing

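No called difference changed direction under any alternative, and of 3355 uncalled values under the alternatives 173 had the other sign. Of the 7 genes, the lesion F test passed 2 and, with another choice, 1 (loess and Aquantile, probes of a gene averaged, arrays of 2 time points), 0 (block for slide, random or fixed block for array, without the 2 arrays that hold 2 day 2 samples) or 5 (arrays of 1 time point, with 12.7% of all genes). At day 2 over both genotypes 2 passed, against 4 (no background correction, normexp, a filter for probes detected in 4 or more samples, an intensity trend), 1 (probes averaged, slide block), 5 (arrays of 1 time point, with 13.9% of all genes) or 0 (array fixed block, arrays of 2 time points, without the 2 day 2 arrays). In WT at day 2 none passed, against 1 with no background correction, normexp, processed signals, the probe filter, array partner as a block or the trend (*Pmp22* each time) and 1 on arrays of 1 time point (*Egr2*, with 4.25% of all genes). On arrays of 2 time points 3 passed for KO day 5 (with 3.54% of all genes) and 4 for day 5 over both genotypes (10.5%), against 0. These subsets of 12 samples, and the fit without the 2 day 2 arrays, were chosen after seeing the data, so their counts support nothing. For the other choices, and for the fits that leave out single samples, the share of all genes passing is not given here. A changed count there may thus reflect the whole fit and not these genes. All other comparisons had 0 under every setting.

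Leaving out single samples gave 0 to 3 genes in the lesion F test, 0 to 3 in WT at day 2 and 1 to 4 at day 2 over both genotypes. The F test passed none without WT control replicate 2, 3 or 4, WT day 2 replicate 2 or 3, WT day 5 replicate 2 or 3, KO control replicate 1, 3 or 4, KO day 2 replicate 1 or 4, or KO day 5 replicate 1 or 3. It passed 1 without WT day 5 replicate 4, KO control replicate 2 or KO day 5 replicate 2 or 4. Without WT day 2 replicate 4, 3 genes passed in WT at day 2 (*Pmp22*, *Egr2* and *Mal*).

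Replicate numbers are shared between groups. Samples with the same number correlated above 0.1 in 14 of 60 pairs (median r 0.07, against -0.03 for other pairs). This check cannot tell whether the numbers pair samples. Samples with the same number always share a dye, and by this measure even the samples of the same array had a median r of 0.05. The numbers were not used as pairs in the main fit. With the replicate block 0 genes passed the F test (limma adjusted p = 0.0625 for *Pmp22* and 0.0614 for *Mal*). The further *Mbp* probe kept its direction throughout and lost its 4 calls with array as a fixed block and on arrays of 2 time points, its day 5 calls on arrays of 1 time point, and its KO day 2 call without KO day 2 replicate 1 or the 2 day 2 arrays. The causes were not tested.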
